A study of Drosophila melanogaster and Drosophila pseudoobscura and Drosophila virilis with 4 samples.

Results

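The Iroquois complex of *D. melanogaster* is a cluster of homeobox genes on arm 3L that holds *araucan* (*ara*, locus tag Dmel_CG10571), *caupolican* (*caup*, Dmel_CG10605) and *mirror* (*mirr*, Dmel_CG10601). Its open chromatin in the eye-antennal imaginal disc was followed across 3 *Drosophila* species as the FAIRE-Seq peaks whose midpoint lies on 3L between positions 12585000 and 12735000 of FlyBase release 5. This window of 150 kb held 33 of the 19424 peaks in the table and of the 4430 peaks on 3L. In FAIRE-Seq, chromatin is fixed with formaldehyde and the DNA that nucleosomes cover least is sequenced, so the reads in a region measure how open its chromatin is. Discs came from larvae of the third instar, at the wandering stage, of wild-type *D. pseudoobscura*, wild-type *D. virilis* and 2 *D. melanogaster* strains, FRT82 (genotype P{neoFRT}82B, an insertion used for mitotic recombination) and Canton-S (a wild-type laboratory strain), with a single library of each. Replicate error can therefore be read only from the 2 strains. It includes any genetic difference between them, and nothing in the sources says how many animals went into a library or of which sex.

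The 3 genes encode closely related homeodomain transcription factors of the TALE class. In the eye disc they are expressed in its dorsal part, where they act as selectors of dorsal fate. The border between cells with and without Iroquois proteins sets the dorsoventral midline, at which Notch signaling is activated and growth of the eye is promoted. The genes share expression domains in several imaginal discs and are known for regulatory elements spread over the DNA between them. Whole discs were used here, so each value averages dorsal, ventral, eye and antennal cells, and a smaller number of cells with an open site cannot be told apart from a less open site in each cell. In the gene table of release 6, *caup* follows *ara* with no gene in between, 4 long noncoding RNA genes lie between *caup* and *mirr*, and *SmD1* follows *mirr*. Gene positions of release 5 were not used here, so no peak is assigned to a gene, and whether the window spans each of the 3 genes entirely was not determined.

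The peaks covered 15590 bp, 10.4% of the window. They are numbered 1 to 33 in the order of their positions. Their lengths ran from 164 to 1843 bp with a median of 347 bp, against a median of 289 bp over all peaks. The first 17.3 kb of the window held no peak, and the longest gap between neighbours, 21.1 kb, lay from 12656255 to 12677393 between peaks 15 and 16. With neighbouring midpoints of 5 kb or less apart taken as a group, the peaks formed 11 groups of 1 to 6. Of the 32 gaps between neighbours, 6 were shorter than 200 bp, the shortest of them 6 bp, so such neighbours may share fragments. Tiles of the same width along 3L held a median of 28 peaks, and the flanking windows held 39 on the left and 25 on the right. Peak 33 reaches past the right edge of the window, and a window widened by 10 kb on each side held 41 peaks.

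The reads per peak were moderate in number. The median member held 118 reads in *D. pseudoobscura*, 83 in *D. virilis*, 57 in FRT82 and 108 in Canton-S, so that counting alone leaves an error of 9.21%, 11.0%, 13.2% and 9.62% in the same order. Fewer than 10 reads were counted at 1 member in *D. virilis* and at 2 in FRT82, and at no member in the remaining libraries. Over the whole table the peaks held 4733792 reads in *D. pseudoobscura*, 3009250 in *D. virilis*, 1386805 in FRT82 and 3407230 in Canton-S, so FRT82 was the shallowest library.

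Peak heights are given below as the deposited RPKM, a measure of reads per kilobase of peak that the authors normalized within and between libraries. The factor from reads per kilobase to these values varied from peak to peak within a library. Ratios of RPKM and ratios of counts can therefore differ at the same peak. The heights of the 33 peaks ran from 7.24 to 73.6 RPKM in *D. pseudoobscura*, from 3.55 to 90.2 RPKM in *D. virilis*, from 4.04 to 57.3 RPKM in FRT82 and from 6.29 to 55.2 RPKM in Canton-S. Peak 31 in *D. virilis* was the only member among the top 1000 peaks of its library, which are 5.15% of all peaks. The median member had 20.8 RPKM in *D. pseudoobscura* against 25.3 RPKM over arm 3L. It had 20.3 RPKM in *D. virilis* against 26.6 over the arm, 30.2 RPKM in FRT82 against 29.9, and 22.0 RPKM in Canton-S against 28.8. FRT82 was the only library in which the median member was not below the median of the arm.

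**Figure D1:**
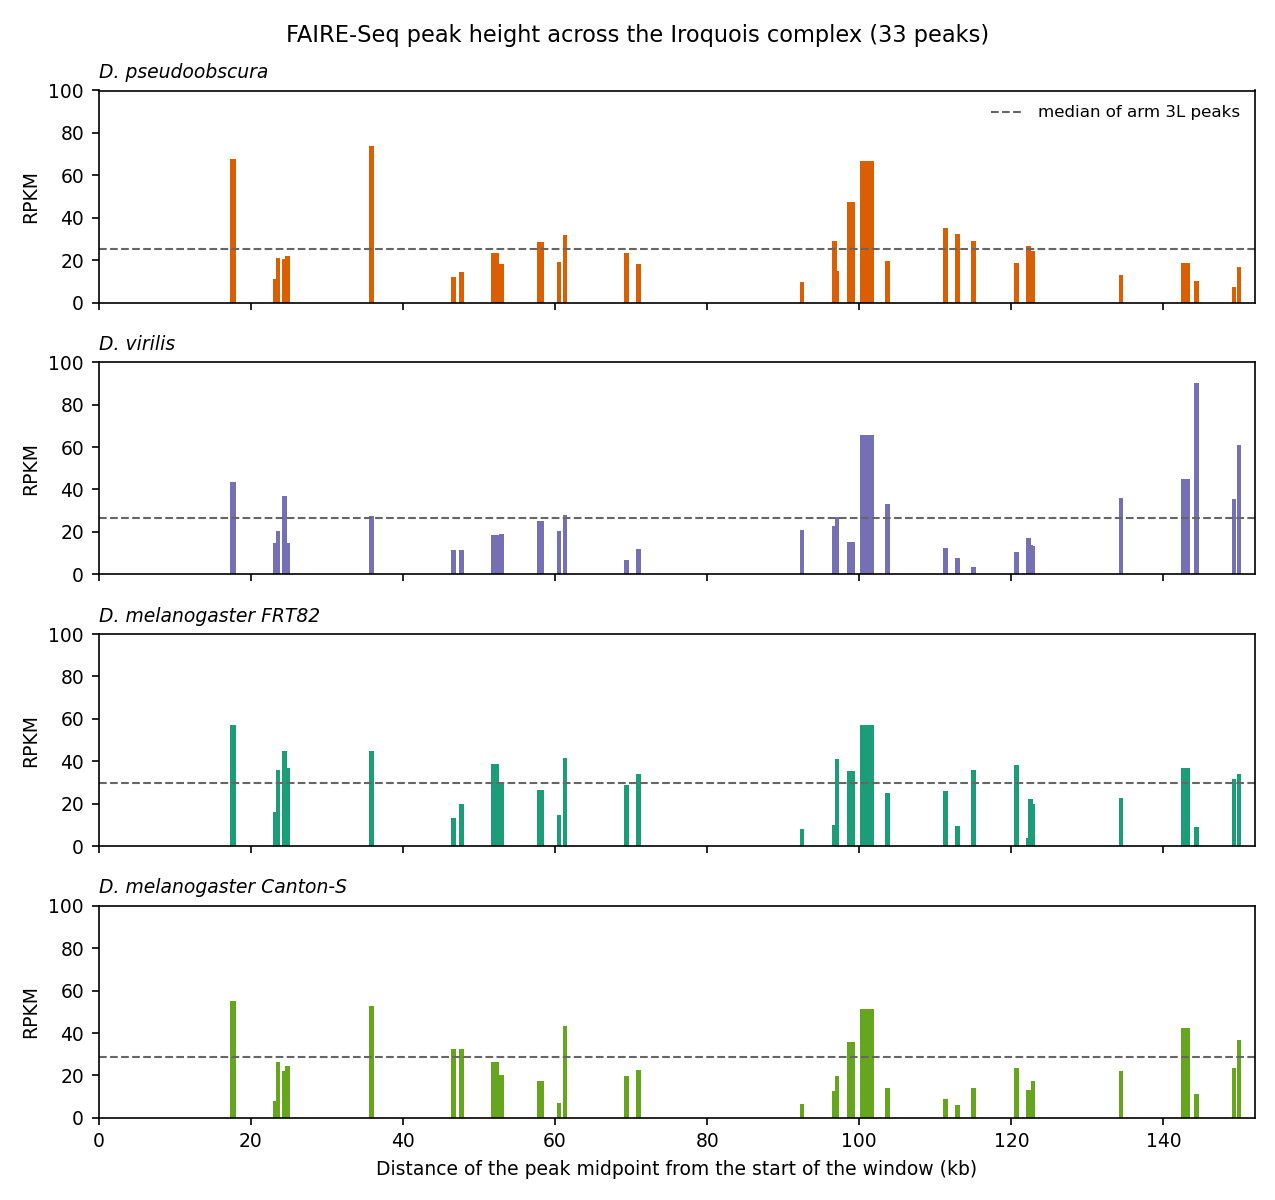
Height of the 33 peaks (bars, deposited RPKM) against the distance of their midpoints from the start of the window (kb), with 1 panel for each library and the median of the arm 3L peaks as a dashed line. Bars are as wide as the peak, and narrow peaks are drawn wider than their length. The long peak 20 stands above 50 RPKM in all 4 libraries, while peak 31 reaches 90.2 RPKM in *D. virilis* alone.

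The 5 highest peaks of the complex were chosen by their mean log2 height over the 4 libraries, so their height in these libraries is partly given by the choice. All but peak 30 stood above the median of arm 3L in every library. Peak 30 had 18.6 RPKM in *D. pseudoobscura*, below the arm median of 25.3 in that library. Peak 20, from 12685122 to 12686965, was the longest at 1843 bp and the highest by its mean over the 4 libraries. It had 66.5 RPKM in *D. pseudoobscura*, 65.8 in *D. virilis*, 57.3 in FRT82 and 51.1 in Canton-S, from 2249, 1359, 562 and 1212 reads. It alone held 24.9% of the member reads in *D. pseudoobscura*, 24.4% in *D. virilis*, 19.3% in FRT82 and 19.0% in Canton-S. Both other species lay above both strains there, by 1.23-fold and 1.22-fold over the strain mean (taken on the log2 scale here and below), and neither difference passed the test described below (edgeR adjusted p = 0.153 and 0.435).

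Peak 1 (12602280 to 12603060) had 67.6 RPKM in *D. pseudoobscura*, 43.5 in *D. virilis*, 57.1 in FRT82 and 55.2 in Canton-S. The strains were nearly equal at this peak, and the other species lay on either side of them. Peak 6 (12620675 to 12621130) had 73.6 RPKM in *D. pseudoobscura*, the highest value of that library in the window, against 27.7 in *D. virilis*, 44.8 in FRT82 and 52.9 in Canton-S. Peak 13 (12646021 to 12646608) had 31.8, 27.8, 41.7 and 43.3 RPKM in the same order of libraries. At peak 13 both other species were below both strains, by 1.34 and 1.53 times, and neither difference passed the test (edgeR adjusted p = 0.539 and 0.309). Peak 30, from 12727352 to 12728463, completed the 5 highest, with 18.6, 44.7, 36.8 and 42.3 RPKM, and *D. pseudoobscura* stood apart from the other libraries there.

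Summed over the 33 peaks, the complex took nearly the same part of the reads in each library. The share of all peak reads was 0.191% in *D. pseudoobscura* (95% Wilson interval 0.187% to 0.195%), 0.185% in *D. virilis* (0.180% to 0.190%), 0.210% in FRT82 (0.203% to 0.218%) and 0.188% in Canton-S (0.183% to 0.192%). From high to low the order was FRT82, *D. pseudoobscura*, Canton-S and *D. virilis*. The last 3 overlap in their intervals, and FRT82 lies above them all. The interval covers counting error only, and reads copied by PCR are not independent molecules. By this share the other species differed from Canton-S by less than the strains differed from each other, but *D. virilis* lay further from FRT82 than Canton-S did. As a share of the reads on arm 3L the values were 0.941% in *D. pseudoobscura*, 0.815% in *D. virilis*, 0.897% in FRT82 and 0.820% in Canton-S. By this measure *D. pseudoobscura* came first, further from Canton-S than FRT82 was.

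**Figure D2:**
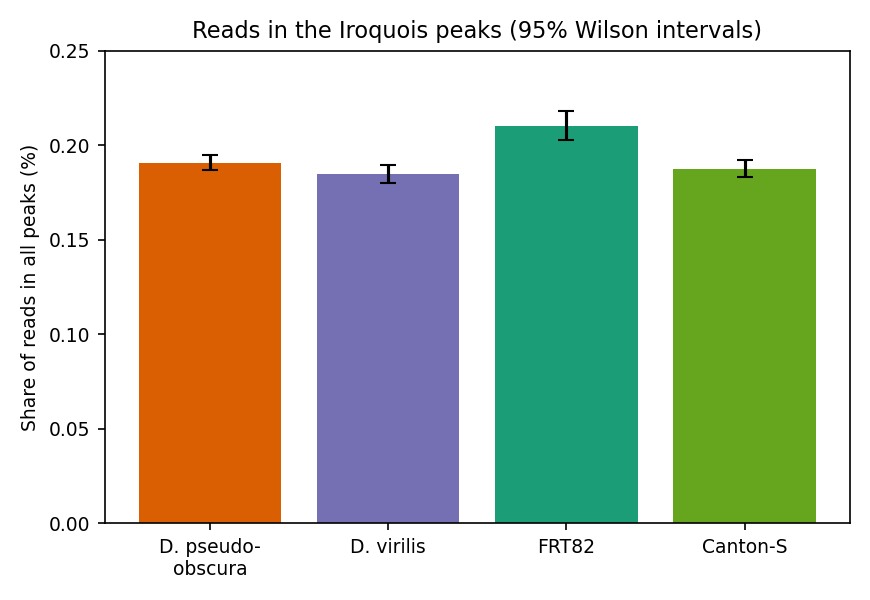
Share of the reads in all peaks that fell into the 33 Iroquois peaks (%, vertical axis) for each library, with 95% Wilson intervals as error bars, which cover counting error only. FRT82 is highest at 0.210%, and the other libraries lie between 0.185% and 0.191%.

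The difference between the 2 *D. melanogaster* strains is the only source of replicate error for the comparisons of 1 other species with *D. melanogaster*. The edgeR test described below shares this error in part over all peaks, so it does not rest on the strain gap of the window alone. The median log2 ratio of FRT82 to Canton-S was 0.44 over the members, against 0.06 on arm 3L and 0.01 over all peaks. FRT82 was higher at 23 of the 33 peaks, against 2393 of the 4430 peaks on arm 3L and 9850 of all 19424 peaks. It was 2-fold or more higher at 6 members (18.2%), against 4.94% of all peaks, and 2-fold or more lower at 2 (6.06%), against 4.8% of all peaks. The median size of the log2 ratio was 0.57 in the window, 0.30 in either flanking window and 0.38 on the arm. With 1 library of each strain this difference has no replicate check. On counts scaled by TMM, edgeR's own normalization, the median log2 ratio was 0.34. The numbers of peaks 2-fold apart rest on deposited RPKM and were not taken again on TMM-scaled counts. Some of these peaks held few reads. Peak 2 had 15 reads in FRT82 and 24 in Canton-S, and peak 12 had 19 and 31. Whether the excess of 2-fold differences in the window holds on counts was thus not tested.

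The 2 largest differences between the strains were at peaks 22 and 26, each weak in 1 strain. Peak 26 (12707133 to 12707344) had 4.04 RPKM in FRT82 from 5 reads and 13.2 RPKM in Canton-S from 47 reads, 3.27 times lower in FRT82. Peak 22 (12696120 to 12696536) had 25.9 RPKM in FRT82 from 57 reads and 9.06 RPKM in Canton-S from 69 reads, 2.86-fold higher in FRT82. The other peaks 2-fold or more apart by deposited RPKM were peaks 2, 4, 12, 18 and 24, higher in FRT82, and peak 7, lower in FRT82. The highest of these was peak 4 with 44.7 RPKM in FRT82 and 22.0 in Canton-S, while peak 7 had 13.3 RPKM in FRT82 and 32.3 in Canton-S. The 5 highest peaks (1, 6, 13, 20 and 30) differed between the strains by 1.18-fold or less in either direction. Across the 33 peaks Pearson's r of log2 RPKM between the strains was 0.69 and Spearman's rho 0.73, against 0.81 and 0.81 over all peaks. These are descriptions across peaks, which share libraries and are not independent replicates.

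**Figure D3:**
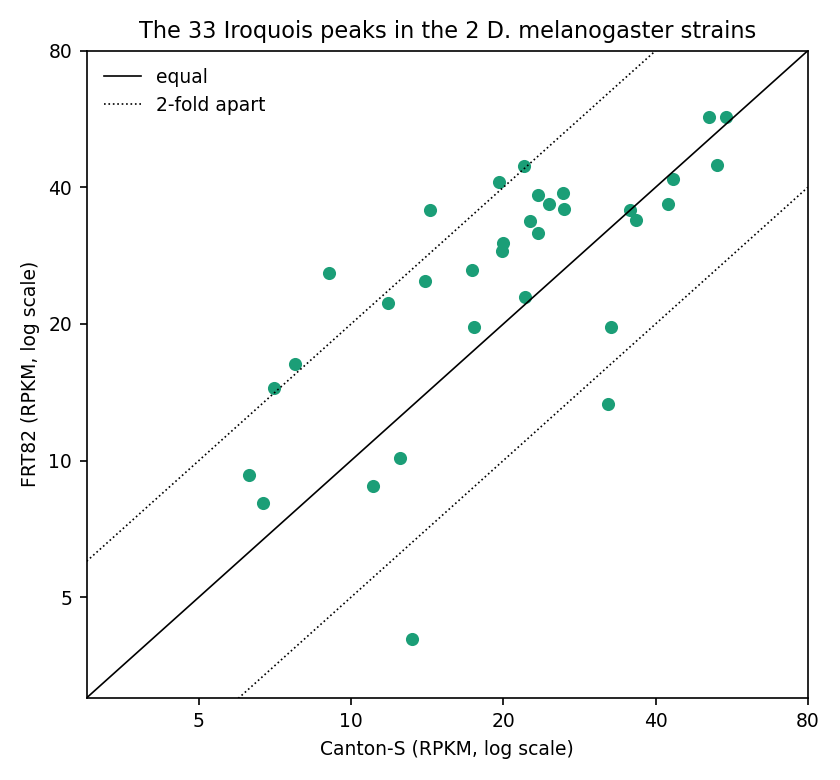
Height of the 33 peaks in FRT82 (vertical axis) against Canton-S (horizontal axis), both as RPKM on a log scale, with lines for equal heights and for 2-fold differences. FRT82 is higher at 23 of the 33 peaks (9850 of all 19424 peaks), and the peaks above 40 RPKM in both strains lie near the line of equality.

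Which peaks of the complex differ between *D. pseudoobscura* and *D. melanogaster* was asked first. In *D. pseudoobscura* the heights went both ways. Peaks 17, 23 and 26 were higher and peaks 18, 30, 32 and 33 were lower past the threshold, the last 3 of them all within 8 kb of the right end of the window. Relative to the strain mean, the members had a median log2 ratio of -0.02, against -0.21 on arm 3L and -0.01 over all peaks. Over the members it was -0.31 against FRT82 alone and 0.24 against Canton-S alone, so the sign depends on the strain, and it was -0.31 on TMM-scaled counts. Arm 3L belongs to the X chromosome in *D. pseudoobscura* and not in the other 2 species, and the median of arms 2L, 2R and 3R was 0.03. The part of this arm difference in the values below was not tested.

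The test was edgeR's quasi-likelihood test on the raw counts with 3 species groups, fitted to all 19424 peaks with Benjamini-Hochberg adjustment over them and a threshold of 0.05. Its error comes from the 2 strains, shared in part over all peaks, and the lone library of another species is assumed to vary like them. Of the 33 members, 3 were called higher in *D. pseudoobscura* (9.09%), against 13.8% of all peaks, and 4 were called lower (12.1%), against 13.7%. The calls are thus no more frequent in the complex than in the table. By deposited RPKM, 4 members lay 2-fold or more above the mean of the strains (15.6% of all peaks did) and 3 lay 2-fold or more below it (13.9% of all peaks did). *D. pseudoobscura* was above both strains at 12 members (36.4%, against 39.4% of all peaks) and below both at 15 (45.5%, against 40.3%). When edgeR was fitted to arm 3L alone, so that the arm set the scaling, 5 members were called higher (15.2%, against 12.7% of the arm) and 1 lower (3.03%, against 11.1% of the arm), and 4 of the 7 calls were shared (peaks 17, 23, 26 and 32). By RPKM relative to the arm median, 5 members were 2-fold or more higher (15.4% of the arm was) and 1 was lower (12.1% of the arm was).

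The highest ratio of *D. pseudoobscura* to the strains was at peak 23 (12697802 to 12697984). It had 32.3 RPKM in *D. pseudoobscura*, on 108 reads, against 7.83 in *D. virilis*, 9.31 in FRT82 and 6.29 in Canton-S from 16, 10 and 22 reads. The *D. pseudoobscura* value was over 3 times that of every other library and 4.22-fold above the strain mean. The log2 fold change on counts was 1.85 and its standard error, taken as the fold change divided by the root of the test's F, was 0.50 (edgeR adjusted p = 0.00235). It was the sole member 2-fold or more above every library of the other species in *D. pseudoobscura* (7.31% of all peaks were). Of the peaks beside it, peak 22 had 35.0 RPKM in *D. pseudoobscura* against 25.9 and 9.06 RPKM in FRT82 and Canton-S (edgeR adjusted p = 0.0503), and at peak 24 *D. pseudoobscura* lay between the strains.

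Peaks 17 and 26 were also called higher, with less certainty. Peak 17 (12681656 to 12681876) had 29.1 RPKM in *D. pseudoobscura* and 22.8 in *D. virilis*, against 10.1 in FRT82 and 12.5 in Canton-S. Both other species lay above both strains, and only *D. pseudoobscura* passed the threshold, narrowly (edgeR adjusted p = 0.0499 in *D. pseudoobscura* and 0.163 in *D. virilis*). Peak 26 had 26.6 RPKM in *D. pseudoobscura* and 17.1 in *D. virilis*, against 4.04 in FRT82 and 13.2 in Canton-S (edgeR adjusted p = 0.0347 and 0.300). FRT82 held 5 reads there, and with a minimum of 10 reads in every library the peak was not tested.

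Peak 18, which begins 32 bp after peak 17, ran the other way. It had 14.8 RPKM in *D. pseudoobscura*, 26.9 in *D. virilis*, 41.1 in FRT82 and 19.6 in Canton-S, and was called lower in *D. pseudoobscura* (log2 fold change -1.15, standard error 0.44, edgeR adjusted p = 0.0387). The strains differed 2.09-fold at this peak. It does not belong to the peaks chosen for description by rule and is named because it was called.

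The lowest ratios of *D. pseudoobscura* lay at the right end of the window. Reads of this species were placed on the *D. melanogaster* genome with liftOver, which can lose reads. Its part in low values was not tested. Peak 32 (12734191 to 12734395) had 7.24 RPKM in *D. pseudoobscura*, on 20 reads, against 35.6 in *D. virilis*, 31.7 in FRT82 and 23.5 in Canton-S from 83, 34 and 69 reads. It was 3.77 times lower than the strain mean (log2 fold change -2.28, standard error 0.56, edgeR adjusted p = 6.54e-04). Peak 33 (12734771 to 12735118) had 16.5 RPKM in *D. pseudoobscura*, against 61.2 in *D. virilis*, 33.8 in FRT82 and 36.6 in Canton-S (edgeR adjusted p = 0.0368). Peak 30 was 2.12 times lower than the strain mean (edgeR adjusted p = 0.0054). At peaks 32 and 33 *D. pseudoobscura* was 2-fold or more below every library of the other species, as at 3.85% of all peaks.

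These calls depend on the test. With DESeq2 on the same counts none of the 33 members passed (3 had an unadjusted p under 0.05), and with limma on log2 RPKM peaks 23, 26 and 32 did.

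The same question was asked of *D. virilis*. Peaks 16 and 31 were higher and peaks 8, 14, 15, 19, 24 and 25 were lower past the threshold, and the highest ratio of any member in either species was at peak 31. Relative to the strain mean, the members had a median log2 ratio of -0.25, against -0.07 on arm 3L and -0.02 over all peaks. Over the members it was -0.39 against FRT82 alone and 0.20 against Canton-S alone, so its sign depends on the strain as well. By edgeR, 2 members were called higher (6.06%), against 11.9% of all peaks, and 6 lower (18.2%), against 12.9%. By deposited RPKM, 5 members were 2-fold or more above the strain mean (16.7% of all peaks were) and 7 were 2-fold or more below it (16.9% of all peaks were). *D. virilis* was above both strains at 11 members (33.3%, against 40.3% of all peaks) and below both at 15 (45.5%, against 41.6%).

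Peak 31 (12729217 to 12729428) had 90.2 RPKM in *D. virilis* from 204 reads, against 10.0 in *D. pseudoobscura*, 8.79 in FRT82 and 11.1 in Canton-S from 32, 11 and 41 reads. The 3 libraries of the other species lay close together, and *D. virilis* was 9.15-fold above the strain mean, a log2 ratio of 3.19 by RPKM. The log2 fold change on counts was 2.71 with a standard error of 0.45 (edgeR adjusted p = 2.65e-07), and the peak was called under every alternative test, with adjusted p from 1.15e-07 to 0.00412. It ranked at position 530 of its library by height, and at 17746, 18124 and 16806 in *D. pseudoobscura*, FRT82 and Canton-S.

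The other peak called higher in *D. virilis* was peak 16, from 12677393 to 12677580, the lowest member by its mean over the libraries. It had 21.0 RPKM in *D. virilis* from 53 reads, against 9.63 in *D. pseudoobscura*, 8.08 in FRT82 and 6.70 in Canton-S from 27, 9 and 24 reads (edgeR adjusted p = 0.0406). Peaks 16 and 31 were the 2 members at which *D. virilis* was 2-fold or more above every library of the other species, as at 8.09% of all peaks. Peak 26, described above, came after these in its *D. virilis* ratio, at 2.34-fold, and was not called.

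The peaks called lower in *D. virilis* lay in the middle of the window, between 12632436 and 12705867. Loss of *D. virilis* reads in liftOver could also lower these values, and this was not tested. Peak 24 (12699921 to 12700132) had 3.55 RPKM in *D. virilis* from 7 reads, against 28.9 in *D. pseudoobscura*, 35.7 in FRT82 and 14.3 in Canton-S from 112, 40 and 50 reads. It was 6.37 times lower than the strain mean, although the strains themselves differed 2.50-fold (log2 fold change -3.14, standard error 0.66, edgeR adjusted p = 6.04e-05). Peak 14 (12654237 to 12654540) had 6.85 RPKM in *D. virilis* from 22 reads, against 23.5 in *D. pseudoobscura*, 28.9 in FRT82 and 19.9 in Canton-S (edgeR adjusted p = 0.00229). Peak 19 (12683351 to 12684405) had 15.3 RPKM in *D. virilis*, against 47.3 in *D. pseudoobscura* and 35.6 in each strain (edgeR adjusted p = 0.00934). At these 3 peaks *D. virilis* was 2-fold or more below every library of the other species, as at 6.38% of all peaks.

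Peak 25 (12705547 to 12705867) had 10.5 RPKM in *D. virilis*, against 18.7 in *D. pseudoobscura*, 38.4 in FRT82 and 23.4 in Canton-S. It was called lower in *D. virilis* (edgeR adjusted p = 0.0117), and *D. pseudoobscura* lay below both strains too without being called (0.220). Peaks 8 and 15 were the remaining calls, 2.24 and 2.30 times lower in *D. virilis* than the strain mean (edgeR adjusted p = 0.0379 and 0.0314). They are named because they were called. With DESeq2 peaks 24 and 31 alone passed, and with limma peaks 14, 19, 24 and 31 did. DESeq2 gave no adjusted p for *D. virilis* at peak 16. With a minimum of 10 reads in every library, peaks 16 and 24 were not tested.

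**Figure D4:**
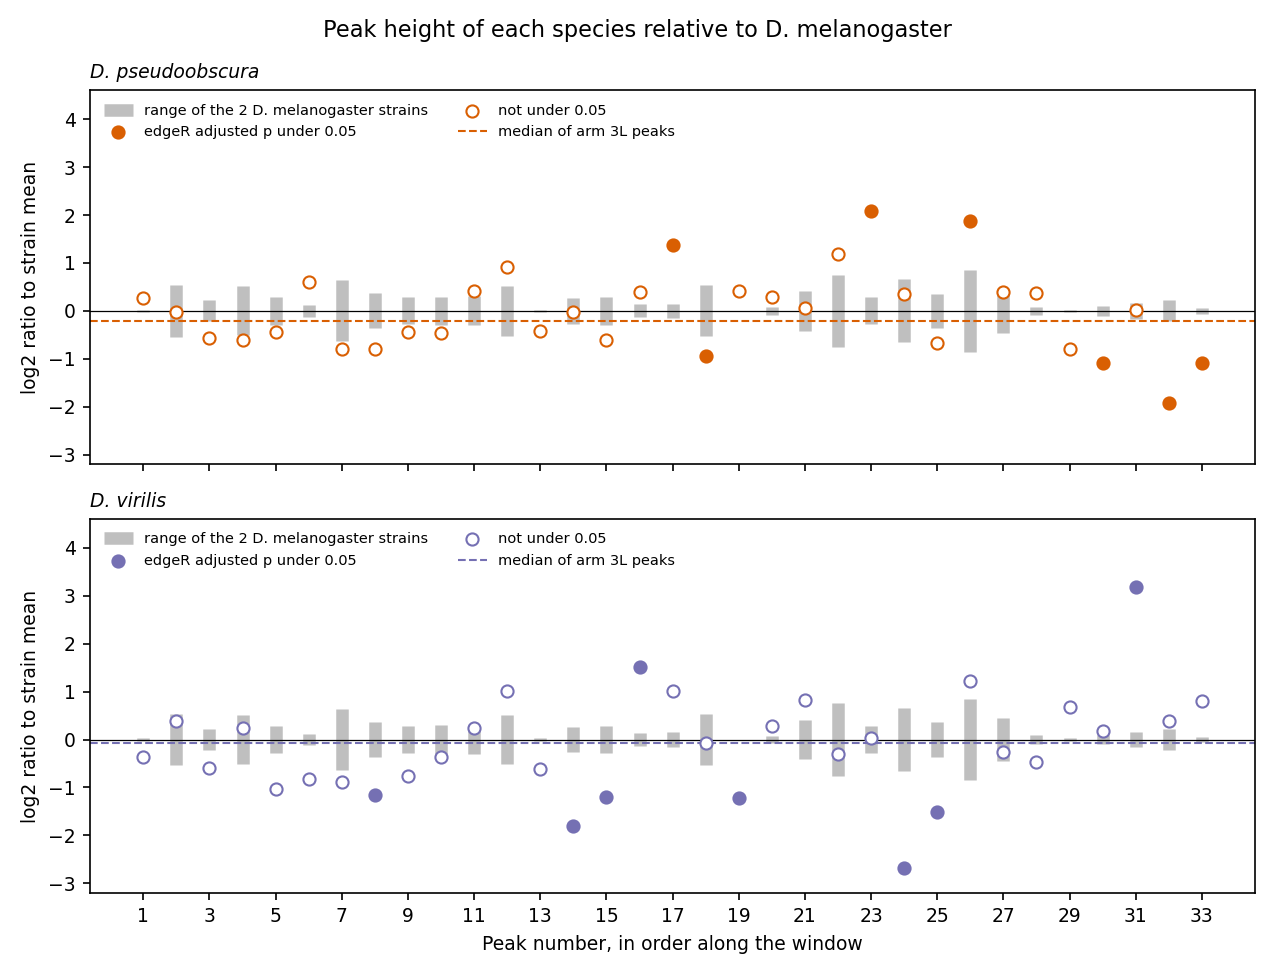
Log2 ratio of deposited RPKM to the mean of the strains (vertical axis) for peaks 1 to 33 in order along the window, in *D. pseudoobscura* (top) and *D. virilis* (bottom). Filled points passed edgeR at an adjusted p under 0.05, open points did not, grey bars span the 2 strains, and the dashed line is the median of arm 3L. Peak 31 stands 3.19 above the strains in *D. virilis* and peak 24 at -2.67, while the right-hand peaks 30, 32 and 33 are low in *D. pseudoobscura*.

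Neighbouring peaks leaned together in some groups and went both ways in others, as a description by group with no test. For background, *D. pseudoobscura* was above the strain mean at 1774 of the 4430 peaks on arm 3L and at 9607 of all 19424 peaks. *D. virilis* was above it at 2089 peaks on the arm and at 9566 of all peaks. In the group of peaks 7 to 10, from 12631525 to 12638239, both other species were below the strain mean at all 4 peaks, with median log2 ratios of -0.63 in *D. pseudoobscura* and -0.82 in *D. virilis*. In the group of peaks 22 to 24, from 12696120 to 12700132, *D. pseudoobscura* was above the strain mean at all 3 peaks with a median of 1.19, and *D. virilis* was above it at 1 with a median of -0.30. In the group of peaks 30 to 33, from 12727352 to 12735118, *D. virilis* was above at all 4 peaks with a median of 0.59, and *D. pseudoobscura* was above at 1 with a median of -1.09. In the pair of peaks 14 and 15 *D. virilis* had a median of -1.50 and *D. pseudoobscura* -0.32. The group of peaks 2 to 5, from 12608108 to 12609963, had medians of -0.51 in *D. pseudoobscura* and -0.18 in *D. virilis*, and FRT82 was above Canton-S at all 4 of its peaks. In the group of peaks 11 to 13 the medians were 0.41 and 0.24 in the same order, in that of peaks 16 to 21 they were 0.34 and 0.55, and in that of peaks 25 to 28 they were 0.39 and -0.36. Peaks within these groups went both ways. In *D. pseudoobscura* the ratios ran from -0.42 to 0.91, from -0.95 to 1.37 and from -0.68 to 1.87 in the same order of groups. In *D. virilis* they ran from -0.61 to 1.02, from -1.22 to 1.51 and from -1.51 to 1.23.

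At some peaks the 2 other species lay on opposite sides of *D. melanogaster*, a comparison added after the data had been seen. At 6 members (18.2%, against 16.6% of all peaks) 1 species was above both strains and the other below both, and the species differed from each other by edgeR at an adjusted p under 0.05. Peaks 6 and 19 were higher in *D. pseudoobscura* than in *D. virilis*, and peaks 29, 30, 32 and 33 were lower in *D. pseudoobscura*. Peak 29 (12719281 to 12719500) had 12.8 RPKM in *D. pseudoobscura* and 36.0 in *D. virilis*, against 22.9 in FRT82 and 22.1 in Canton-S. Over the 33 peaks Pearson's r of log2 RPKM between *D. pseudoobscura* and *D. virilis* was -0.03 and Spearman's rho -0.09, against 0.24 and 0.24 over all peaks, as a description across peaks that share the 2 libraries.

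Whether any peak set *D. melanogaster* apart from both other species was asked with the only comparison that has 2 libraries on each side. The 2 other species taken as 1 group were compared with the 2 strains by edgeR on the counts. No member passed an adjusted p of 0.05, as in the whole table, where the share was 0% too. At an unadjusted p under 0.05 there was 1 member (3.03%), against 10.1% of all peaks. That was peak 31, with an unadjusted p of 0.0457, where *D. virilis* alone was high. DESeq2 and limma called none of the 33 either. The spread between the 2 other species is part of the error here. By deposited RPKM, no member was 2-fold or more higher in both strains than in both other species (4.02% of all peaks were), and none was 2-fold or more lower (2.57% of all peaks were).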

How the data were processed

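FAIRE-Seq libraries of eye-antennal discs were grouped by species from their labels. The authors mapped reads with Bowtie2, used liftOver to place those of *D. pseudoobscura* and *D. virilis* on the *D. melanogaster* genome, ran F-Seq on each library and gathered its peaks, and deposited raw read counts per peak (HTSeq) and RPKM normalized within and between libraries, with a tool that is not given in the sources used here. Regions without reads in a species were left out by the authors. For a set of 19424 peaks, the number in the table, they also state a minimum RPKM in the species and a minimum peak length. A site open in 1 species and without reads or below that minimum in another is thus not seen here, nor is a very short peak. liftOver can lose reads of the other species.

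Ratios are log2 RPKM minus the mean log2 RPKM of the strains. Counts were tested with edgeR 4.0.16 (TMM, quasi-likelihood, no filter). Alternatives were DESeq2 1.42.0, limma 3.58.1 with a trend, a minimum of 10 reads in every library, arm 3L alone, a threshold of 0.01, a pseudocount of 1, TMM-scaled counts, other window edges and leaving out each strain. The tests were tried on simulated counts. Python 3.11.15 and R 4.3.3 were used.

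Peaks described by rule were the 5 highest, the lowest, the longest, the 3 highest and 3 lowest ratios in each other species, the 2 largest strain differences, and those 2-fold from every library of the other species. The window, lists and rule were chosen with earlier results of these data known. Gene names come from a RefSeq table of release 6. The Ornstein-Uhlenbeck models were not refitted, and sequence was not used here.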

Additional observations from a re-analysis of the deposited data

Results flagged for a closer look

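At 6 peaks the 2 other species lay on opposite sides of both *D. melanogaster* strains and differed from each other in a direct edgeR test, with log2 fold changes of *D. pseudoobscura* over *D. virilis* on counts. The log2 fold change was 1.41 at peak 6 (edgeR adjusted p = 0.00283) and 1.53 at peak 19 (2.34e-04). It was -1.56 at peak 29 (edgeR adjusted p = 0.0183), -1.20 at peak 30 (0.00342), -2.61 at peak 32 (1.90e-04) and -1.86 at peak 33 (6.34e-04). Each species has 1 library, and the error is that of the strains. In the same direct comparison DESeq2 called peaks 19, 32 and 33, and limma called peaks 6, 19, 32 and 33.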

How the results depend on the processing

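Of the 33 members, edgeR called 7 in *D. pseudoobscura* and 8 in *D. virilis*. DESeq2 called 0 and 2, limma 3 and 4, and an adjusted p under 0.01 left 3 and 4. Over the whole table edgeR called 5349 and 4799 peaks, DESeq2 1205 and 1118, and limma 2864 and 3840. In the comparison of both other species with the strains, edgeR called 0 peaks of the table, DESeq2 162 and limma 273. Without each strain in turn the *D. pseudoobscura* median log2 ratio lay between -0.31 and 0.24 and that of *D. virilis* between -0.39 and 0.20, the higher value without FRT82 in both. In *D. pseudoobscura* this median was -0.36 in the window widened by 10 kb, -0.31 on TMM-scaled counts, -0.22 with 10 or more reads in every library and 0.19 relative to arm 3L. Without each strain the members 2-fold apart numbered 8 to 11 and 10 to 12. Without FRT82, 11 members were 2-fold apart in *D. pseudoobscura*, against 7 with both strains. A 2-fold difference from each strain left 6 of 12 members in *D. virilis*. Shares over all peaks were not taken for these 2-fold settings or for an adjusted p under 0.01. Whether such changes are particular to the window was thus not tested. With arm 3L reads as the denominator, which is smaller by construction, the shares were 0.941%, 0.815%, 0.897% and 0.820% in *D. pseudoobscura*, *D. virilis*, FRT82 and Canton-S, and with RPKM times length the share of Canton-S was 0.181%. At the 17 peaks described by rule, 104 of 129 alternative values kept their sign and their side of the threshold, 16 lost a call and 3 gained one. The other 6 turned their sign, none of them called: the *D. pseudoobscura* log2 fold change at peak 14 (-0.03) was 0.0012 with 10 or more reads and 0.19 on arm 3L alone, that at peak 16 (-0.16) was 0.39 with limma and 0.055 on arm 3L alone, that at peak 31 (-0.52) was 0.024 with limma, and the *D. virilis* one at peak 23 (-0.33) was 0.034 with limma. The causes were not tested. No paired analysis was possible because the libraries carry no shared replicate numbers. Few reads at weak peaks of FRT82 limit the strain ratios.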

Other observations

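The peaks outside the window whose heights were most like those of peak 20, by Euclidean distance over the 4 log2 RPKM values, lay on 2L from 20793010 to 20794309 (distance 0.12), on 3L from 8812597 to 8813134 (0.12) and on X from 2347112 to 2347496 (0.16). The first had 65.8 RPKM in *D. pseudoobscura*, 63.4 in *D. virilis*, 60.8 in FRT82 and 53.1 in Canton-S. With 4 libraries this likeness is a description of similar heights and no more.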
